A study of Mus musculus with 6 samples.

Results

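The genes described here encode proteins of the cytosolic ribosome. They were taken by name, as the genes whose platform symbol is Rpl or Rps followed by a number, together with Rplp0, Rplp1, Rplp2 and Rpsa. Kinase genes of the Rps6k family and symbols of pseudogenes were left out. The rule found 49 genes among the 18193 measured, each read through its brightest probe set, by the mean of the 6 arrays. Of these, 20 encode core proteins of the large (60S) subunit, 21 core proteins of the small (40S) subunit and 2 proteins of the stalk, while 6 are paralogs that resemble a core gene. The lists of these 4 classes name 43, 31, 3 and 9 genes. The others, among them Rpl3, Rpl5 and Rplp1, were not found on a probe set with 1 gene symbol. The 49 are thus only a part of the ribosome's proteins.

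The study asked what changes when miR-142-3p is raised while marrow cells turn into myeloid-derived suppressor cells, immature myeloid cells that restrain T cells. Bone marrow cells of healthy C57BL/6 mice were transfected, with the reagent GeneSilencer, with a mimic of miR-142-3p (3 arrays) or with a control oligonucleotide (3 arrays). The labels give 100 nM for the oligonucleotide. Both groups then received the cytokines GM-CSF and IL-6 after 5 h and were kept for 4 days, so the controls carry the transfection and the cytokines too. The labels give neither the sex and age of the mice nor whether arrays of 1 group stem from different mice or cultures. The p-values therefore reflect the scatter among these 6 samples alone, and that scatter may be technical.

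A ribosome is built from ribosomal RNA and a set of proteins, most of them present once, and it reads messenger RNA into protein. The messenger RNAs of these proteins are among the most abundant in most cells. In vertebrates many of them begin with a cytosine followed by a run of pyrimidines, the terminal oligopyrimidine tract, through which their translation follows growth signals such as mTOR. Several of the proteins have roles beyond the ribosome, among them RPL5 and RPL11, which bind MDM2 when ribosome assembly fails, and RPL13A, which in human monocytes leaves the ribosome after interferon gamma to silence inflammatory messages.

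The microRNA that was raised is shown first, as RefSeq gives it for GRCm38.p6 (chr11:87756903-87756925, plus strand), with its seed, bases 2 to 8, in capitals. The sequence of the mimic itself is not given in the sources used here.
mmu-miR-142a-3p: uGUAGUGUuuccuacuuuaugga

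The start sites of the ribosomal protein genes are shown next, since the tract at the start is a feature that the choice by name did not use. RefSeq promoters of GRCm38.p6 matched 43 of the 49 genes by symbol. In 8 of the 43 (18.6%) the annotated start is a C followed by at least 4 bases that are all C or T, read on the gene's own strand. This held for 3.01% of the 27025 genes with an entry, and for 2.88% of the 6319 with an entry and a mean log2 value of at least 3 on these arrays. Each line gives 15 bases before the start and 15 from it on, and capitals mark the unbroken run of C and T that begins at the start. The positions are chr9:120571502-120571531 (plus) for Rpl14, chr2:39005117-39005146 (minus) for Rpl35, chr11:114668565-114668594 (plus) for Rpl38, chr7:141447636-141447665 (plus) for Rplp2, chr4:86857353-86857382 (minus) for Rps6, chr17:27635230-27635259 (minus) for Rps10, chr17:33955651-33955680 (minus) for Rps18 and chr3:90213634-90213663 (minus) for Rps27.
Rpl14: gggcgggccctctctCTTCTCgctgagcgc
Rpl35: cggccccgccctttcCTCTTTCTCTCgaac
Rpl38: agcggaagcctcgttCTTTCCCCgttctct
Rplp2: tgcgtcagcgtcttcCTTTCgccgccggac
Rps6: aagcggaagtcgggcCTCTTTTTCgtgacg
Rps10: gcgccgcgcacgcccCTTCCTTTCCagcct
Rps18: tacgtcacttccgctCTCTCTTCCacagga
Rps27: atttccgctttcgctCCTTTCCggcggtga

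Rpl41 and Rps24, the bright genes with the lowest and the highest fold change below, did not meet this definition. Rpl41 had no C or T at its start, while the upstream start of Rps24 opens a run of 6 pyrimidines whose first base is T. They lie at chr10:128549154-128549183 (minus) for Rpl41 and, for the upstream of 2 annotated starts, at chr14:24490663-24490692 (plus) for Rps24.
Rpl41: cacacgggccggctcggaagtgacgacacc
Rps24: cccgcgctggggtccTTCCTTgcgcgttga
An annotated start can lie a few bases off the used one. A C followed by at least 6 pyrimidines anywhere in these 30 bases was found in 22 of the 43 genes (51.2%), against 16.4% of all genes with an entry, a window chosen after the first count was seen. With any run of at least 5 pyrimidines from the start, whatever its first base, also chosen after the values were seen, the count was 11 of 43 (25.6%), against 5.28% of all genes with an entry, and the 3 genes added were Rpl7a, Rpl27a and Rps24.

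No gene of the 49 passed the test between mimic and control. Levels are deposited log2 values, and fold changes are mimic against control on the log2 scale. With limma and Benjamini-Hochberg adjustment over all 18193 genes, 0 of the 49 rose and 0 fell at an adjusted p of 0.05, where 2.76% of all genes were called (1.17% higher, 1.59% lower). Over all genes that is 213 higher and 290 lower, and a further quantile normalisation turned this split to 322 higher and 290 lower, with 0 of the 49 called. The lowest adjusted p was 0.274, for Rpl41. At an unadjusted p under 0.05 there were 2 of 49, Rpl41 and Rps18, where 17.0% of all genes lay under it. The median log2 fold change of the 49 was -0.06, with 17 means higher and 32 lower, against a median of 0.01 over all genes. The changes had an SD of 0.17 between the 49 genes and of 0.29 between all genes.

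The 95% interval of the log2 fold change lay inside -0.5 to 0.5 for 43 of the 49 genes and inside -1 to 1, a 2-fold change either way, for 48. The gene outside the wider bounds was Rpl27a. Of all 18193 genes, 12028 lay inside the narrower bounds and 17371 inside the wider ones. The 49 include dim genes such as Rps16, at a mean log2 of 0.18, where a narrow interval says little about the transcript. These bounds were chosen after the values were seen. The intervals rest on 3 arrays a group, whose number limits the precision. The values are relative to the rest of each array, so less RNA per cell and fewer cells of a type cannot be told apart here.

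**Figure D1:**
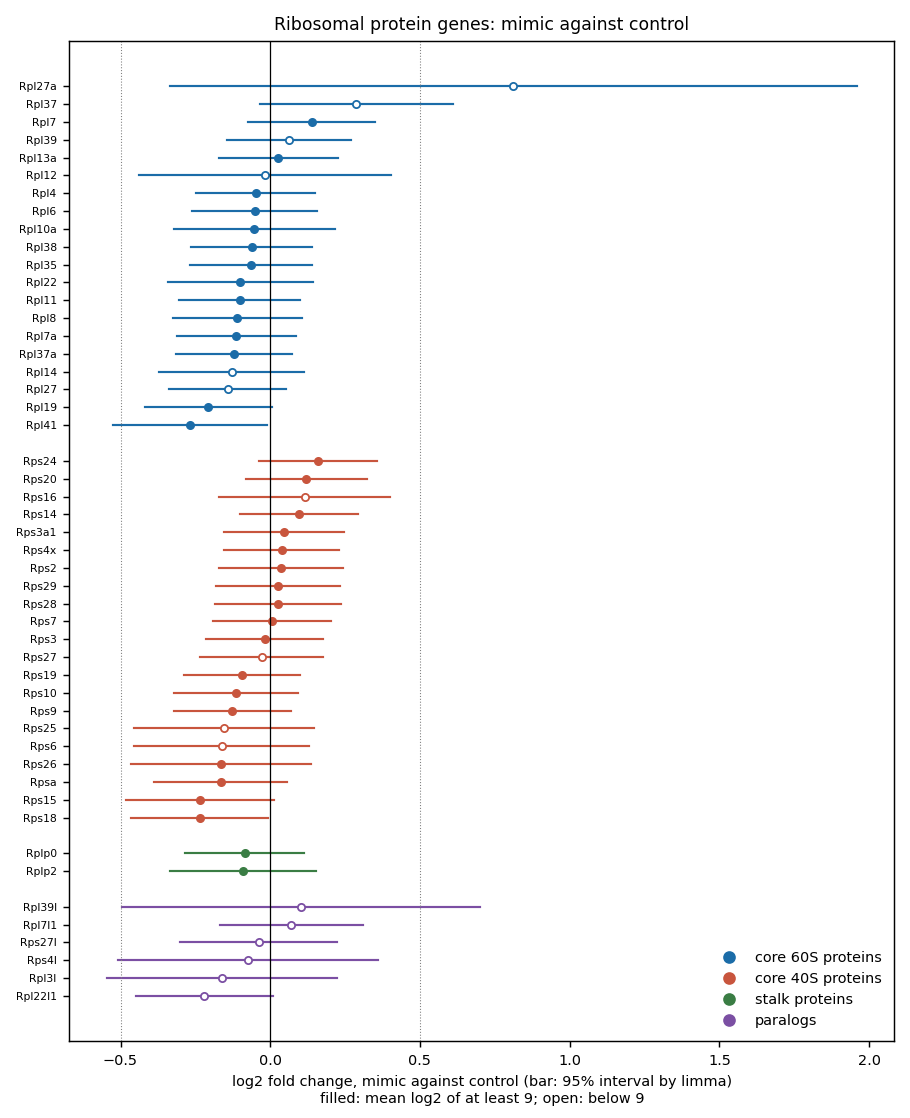
Log2 fold change of each of the 49 genes, mimic against control, with its 95% interval by limma (bars), grouped by class; filled points have a mean log2 value of at least 9, and dotted lines mark -0.5 and 0.5. The intervals of 43 genes lie between the dotted lines, and that of Rpl27a is the widest.

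Most of these transcripts lay near the upper end of the arrays. A mean log2 of at least 9 was reached by 33 of the 49 genes, called bright below, and 28 of the 71 genes at 10 or above were ribosomal protein genes. Rps29, at a mean of 11.1, was the brightest, and the highest deposited value of any probe set was 12.3. The levels 9 and 10 were chosen after the values were seen. The 33 bright genes had log2 fold changes from -0.27 to 0.16 with an SD of 0.11, while the 164 other genes at 9 or above ran from -1.66 to 1.08 with an SD of 0.34. Of those 164 genes, 11 passed the test (6.71%). How far values are compressed at this brightness was not tested.

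**Figure D2:**
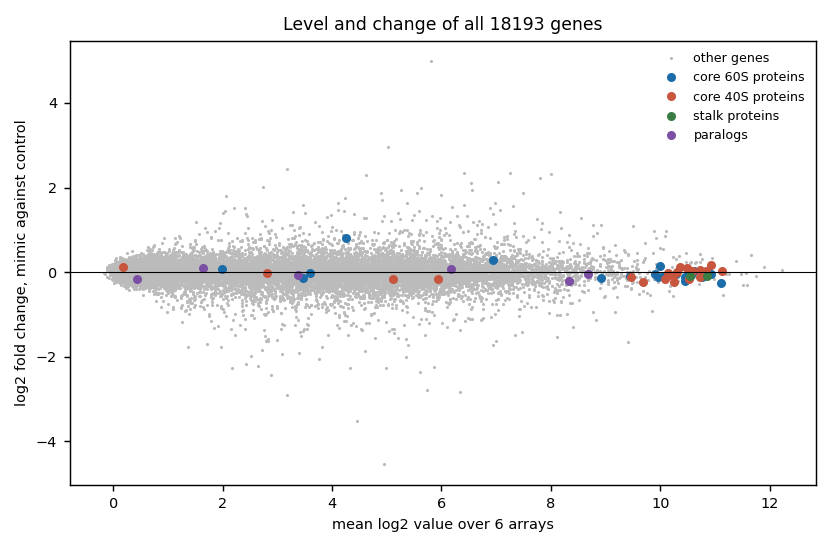
Log2 fold change, mimic against control, against the mean log2 value over 6 arrays for all 18193 genes (grey) and for the ribosomal protein genes (colours by class). The ribosomal protein genes gather at the bright end, where 28 of 71 genes at 10 or above belong to them, close to a change of 0.

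The arrays of the groups still separated for some genes. In 19 of the 49 genes (38.8%) no mimic value fell within the control values' span, 14 of them lower and 5 higher. Over all genes this was so for 22.2% (11.1% lower, 11.0% higher), and over the 164 other genes at a mean log2 of at least 9 for 55.5% (26.2% lower, 29.3% higher). Among the 33 bright ribosomal protein genes it was 17, or 51.5%, with 12 lower (36.4%) and 5 higher (15.2%). The total share among the bright ribosomal protein genes is thus near that of other bright genes. By direction the shares differed, with more lower and fewer higher than among the other bright genes, a difference that was not tested.

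The arrays did not contribute evenly. Control array 1 held the highest of the 6 values in 21 of the 49 genes, and mimic array 3 the lowest in 19. For the 33 bright genes the median deviation from the gene's own mean was -0.02, -0.02 and -0.05 in mimic arrays 1, 2 and 3, and 0.05, 0.02 and 0.002 in control arrays 1, 2 and 3. The other 164 bright genes went the other way in control array 1, at -0.07, which held the lowest value in 76 of them. Summed without the log, the 33 genes made up 6.56%, 6.54% and 6.52% of the signal of all measured genes in mimic arrays 1, 2 and 3, and 7.07%, 6.68% and 6.65% in control arrays 1, 2 and 3. Each mimic array had a lower share than each control array, with control array 1 farthest above.

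**Figure D3:**
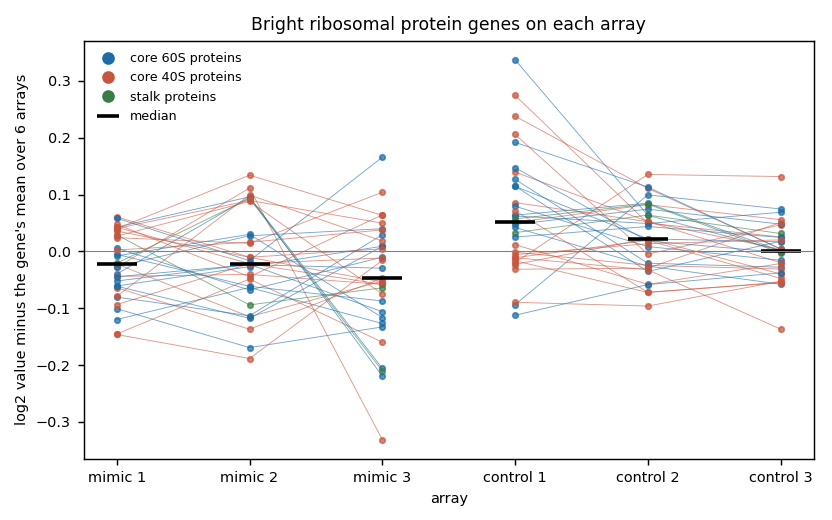
Log2 value of each of the 33 bright ribosomal protein genes on each array minus the gene's mean over the 6 arrays, coloured by class, with the median as a black bar. The median is highest in control array 1 (0.05) and lowest in mimic array 3 (-0.05), and genes of both subunits spread to either side.

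Large subunit genes had lower means in 15 of 20 cases, and none passed the test. Their median log2 fold change was -0.06, with a range from -0.27 to 0.81. Rpl41 (Entrez gene 67945) encodes the smallest protein of the ribosome. It read 11.01, 10.95 and 10.98 on mimic arrays 1, 2 and 3, against 11.45, 11.18 and 11.12 on control arrays 1, 2 and 3. All mimic values lay below all control values, and control array 1 stood above the rest. With limma it differed by -0.27 ± 0.11 on the log2 scale (SE, adjusted p = 0.274), and by -0.17 without control array 1. Its probe set is of the type (_x_at) that can match similar transcripts. Another bright one of that type gave -0.17, and the only one of another type, dim at a mean of 2.20, gave 0.09. Rpl19, chosen after its values were seen, read 10.32, 10.38 and 10.32 with the mimic, against 10.64, 10.56 and 10.45 in control. The groups did not overlap, with a change of -0.21 ± 0.09 (adjusted p = 0.308 by limma).

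Large subunit proteins with more specialised known roles followed. Rpl11, which with Rpl5 restrains MDM2, read 9.43, 9.38 and 9.35 with the mimic, against 9.55, 9.46 and 9.46 in control (-0.10 ± 0.09, adjusted p = 0.622 by limma). The arrays just separated, by less than the spread within the control group. Rpl13a read 10.58, 10.64 and 10.65 with the mimic, against 10.65, 10.58 and 10.55 in control, and the groups overlapped (0.03 ± 0.09, adjusted p = 0.914). Its 3 further probe sets had changes of -0.19, 0.01 and -0.22, so its probe sets differed in sign. Rpl38, which in mouse embryos aids translation of Hox messages, had a change of -0.06 ± 0.09 (adjusted p = 0.788), with means of 10.53 ± 0.08 and 10.59 ± 0.01 (SD, n = 3) in mimic and control. Rpl22, whose loss in mice blocks the growth of alpha beta T cell precursors, had means of 10.02 ± 0.15 and 10.12 ± 0.04 (SD, n = 3) in mimic and control and a change of -0.10 ± 0.10 (adjusted p = 0.701).

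Rpl7 had the highest fold change among the bright large subunit genes and was chosen after its values were seen. It read 10.06, 9.99 and 10.17 with the mimic, against 9.89, 9.95 and 9.97 in control. Every mimic value was above every control value, by a narrow margin (0.14 ± 0.09, adjusted p = 0.515 by limma), and its 2 further probe sets gave 0.10 and 0.19. Rpl27a, of the same subunit, had the largest change of all 49 genes and the least certain. Its brightest probe set with 1 symbol was dim, at 4.43, 3.89 and 5.66 with the mimic and 4.72, 3.37 and 3.45 in control. Mimic array 3 and control array 1 lay above their groups, and the groups overlapped. The log2 fold change was 0.81 ± 0.49 (adjusted p = 0.475), and it was 0.31 without mimic array 3 and 1.25 without control array 1. Rpl37, also below the bright range and chosen after its values were seen, stood at 7.09 ± 0.08 and 6.80 ± 0.26 (SD, n = 3) in mimic and control, with 1 control array among the mimic values (0.29 ± 0.14, adjusted p = 0.355 by limma). Rpl39, which lines the exit tunnel, was read through a dim probe set at 2.01 ± 0.05 and 1.95 ± 0.07 (SD, n = 3) in mimic and control.

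Small subunit genes were split almost evenly, with 10 means higher and 11 lower, and none passed the test. Their median log2 fold change was -0.02, with a range from -0.24 to 0.16, and the 95% interval of each of the 21 lay inside -0.5 to 0.5. The 21 include dim genes, such as Rps16 at a mean log2 of 0.18 and Rps27 at 2.81. Rps18 (Entrez gene 20084), which sits in the head of the small subunit and has the tract printed above, read 10.10, 10.20 and 10.09 on mimic arrays 1, 2 and 3, against 10.49, 10.36 and 10.25 on control arrays 1, 2 and 3. The groups did not overlap, and control array 1 was again the highest. Its change was -0.24 ± 0.10 (adjusted p = 0.278 by limma), and -0.18 without control array 1. Of its 2 other bright probe sets, one had a change of -0.29 and the other of 0.01. Rps15, chosen after its values were seen, also separated the groups, at 9.53, 9.49 and 9.66 with the mimic and 9.96, 9.73 and 9.71 in control (-0.23 ± 0.11, adjusted p = 0.322). The other probe set of Rps15, at a mean of 9.54, gave -0.13, and there the groups overlapped.

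Rps24, a gene mutated in some families with Diamond-Blackfan anaemia, had the highest fold change of the small subunit. It read 10.96, 11.05 and 10.98 with the mimic, against 10.83, 10.82 and 10.87 in control. All mimic values lay above all control values, with a change of 0.16 ± 0.08 (adjusted p = 0.407 by limma). Its 3 further bright probe sets gave 0.14, 0.15 and 0.18, and its 2 dimmest gave -0.04 and 0.04. Rps14, whose loss of one copy underlies the anaemia of the 5q- syndrome in people, read 10.51, 10.50 and 10.59 with the mimic, against 10.47, 10.42 and 10.44 in control (0.10 ± 0.09, adjusted p = 0.642). Rps19, the gene most often mutated in Diamond-Blackfan anaemia, read 10.19, 10.19 and 10.18 with the mimic, against 10.32, 10.29 and 10.24 in control (-0.09 ± 0.08, adjusted p = 0.637). For both genes the groups did not overlap, with the mimic higher for Rps14 and lower for Rps19. The other probe set of Rps14, at a mean of 10.19, gave 0.02, and there the groups overlapped.

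Rpsa, which encodes a small subunit protein also known as the laminin receptor, read 10.47, 10.39 and 10.48 with the mimic, against 10.73, 10.52 and 10.58 in control (-0.17 ± 0.10, adjusted p = 0.445 by limma). The arrays separated, with control array 1 farthest out. Rps3, which also acts in DNA repair and with NF-kB, differed by -0.02 ± 0.08 (adjusted p = 0.941), and the X-linked Rps4x by 0.04 ± 0.08 (adjusted p = 0.87). Rps6, the protein that S6 kinase phosphorylates downstream of mTOR, was read through a dim probe set at 5.12, 5.19 and 4.81 with the mimic and 5.33, 5.16 and 5.12 in control. Its groups overlapped (-0.16 ± 0.13, adjusted p = 0.59), and the change was 0.02 with mimic array 3 and control array 1 both left out. Rps25, which viral internal ribosome entry sites need, stood at 5.85 ± 0.22 and 6.00 ± 0.09 (SD, n = 3) in mimic and control, and Rps27 at 2.79 ± 0.02 and 2.82 ± 0.08.

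The stalk of the large subunit recruits the factors that drive elongation. Rplp0, its base, read 10.88, 10.75 and 10.78 with the mimic, against 10.88, 10.91 and 10.88 in control. Mimic array 1 lay just below the lowest control, and the change was -0.09 ± 0.09 (adjusted p = 0.686 by limma). Rplp2, one of the proteins that bind to it, read 10.51, 10.63 and 10.32 with the mimic, against 10.59, 10.62 and 10.53 in control. The groups overlapped, mimic array 3 was low, and the change was -0.09 ± 0.11 (adjusted p = 0.731).

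The 6 paralogs ranged from a mean log2 of 0.43 to 8.67, all below the bright range, and none passed the test. Rpl22l1, the paralog of Rpl22, read 8.29, 8.17 and 8.22 with the mimic, against 8.55, 8.47 and 8.32 in control. The groups did not overlap, and the change was -0.22 ± 0.10 (adjusted p = 0.315 by limma), against -0.10 for Rpl22 itself. Another bright probe set of Rpl22, at a mean of 9.11, gave -0.18, and a dim one, at 2.83, gave -0.05. The difference between the pair was not tested. Rps27l, a target of p53, read 8.69, 8.80 and 8.48 with the mimic and 8.75, 8.74 and 8.59 in control, and these values overlapped (-0.04 ± 0.11, adjusted p = 0.907). Rpl7l1 stood at 6.21 ± 0.13 and 6.14 ± 0.07 (SD, n = 3) in mimic and control. The dim ones were Rps4l at a mean of 3.38, Rpl39l, known from the mouse testis, at 1.64, and Rpl3l, known from heart and skeletal muscle, at 0.43, and the 95% interval of Rpl39l reached from -0.50 to 0.70.

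**Figure D4:**
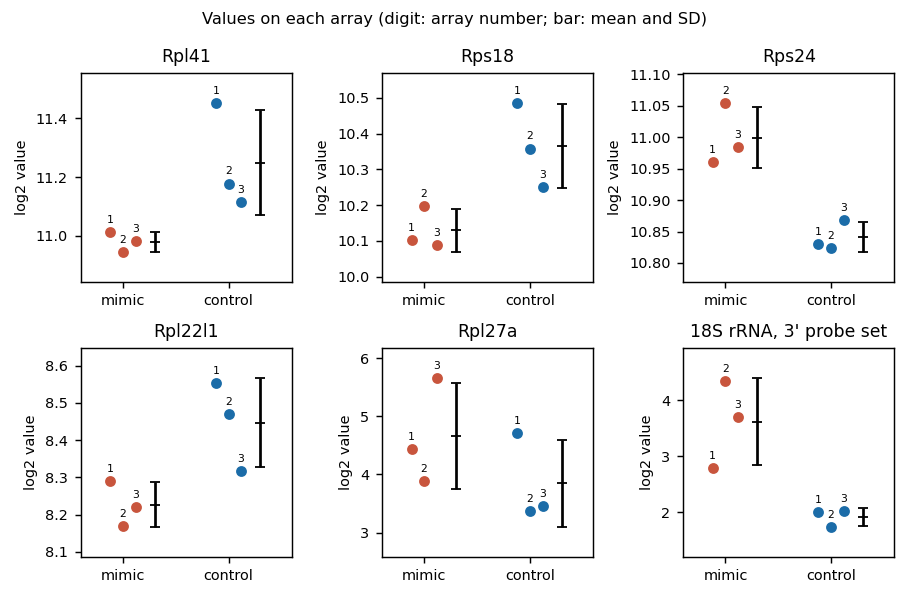
Log2 values on each array, mimic left and control right, for Rpl41, Rps18, Rps24, Rpl22l1, Rpl27a and the 3′ probe set for 18S ribosomal RNA, with the array number beside each point and the mean and SD (n = 3) as a bar; each panel has its own scale, which does not start at 0. Rpl41, Rps18 and Rpl22l1 lie lower with the mimic and Rps24 higher without overlap, Rpl27a overlaps, and 18S lies higher with the mimic.

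Probe sets for the ribosome's RNA read higher with the mimic on every array. The platform holds 3 control probe sets for 18S ribosomal RNA of the small subunit, an RNA without a poly(A) tail that oligo-dT priming mostly leaves behind. The 3′ probe set read 2.79, 4.35 and 3.70 on mimic arrays 1, 2 and 3, against 2.01, 1.73 and 2.01 on control arrays 1, 2 and 3. The middle one read 1.32, 3.65 and 2.30 with the mimic and 1.28, 0.98 and 1.22 in control, and the 5′ one 1.13, 2.17 and 1.28 with the mimic and 0.87, 0.85 and 0.87 in control. Every mimic value was above every control value in each of the 3 probe sets, and mimic array 2 was the highest in each. The differences were 1.70, 1.27 and 0.66 (exact two-sided permutation p = 0.1 for each, the smallest that this test can give with 3 against 3 arrays). They were not alone in this among the control probe sets. All 3 for actin (differences of -0.92, -1.13 and -1.27 for the 3′, 5′ and middle ones) and all 3 for Gapdh (-0.18, -0.31 and -0.27) also separated the groups, with the mimic lower and the same exact permutation p of 0.1. A sign of RNA quality also stood apart in mimic array 2. The 3′ minus 5′ difference of Gapdh was 0.24, 0.83 and 0.24 in mimic arrays 1, 2 and 3 and 0.37, 0.27 and 0.30 in control arrays 1, 2 and 3, and that of actin was also highest in mimic array 2, at 2.39. Its part in the 18S values was not tested.

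The brighter probe sets of a gene mostly, but not always, went the same way, and most dim ones did not go with the brightest. The 49 genes have 105 probe sets with 1 symbol, and 0 of the 105 passed when all 34945 such probe sets were fitted together (1.16% of these passed, by limma). An unadjusted p under 0.05 was found for 4 of the 105, where 17.0% of all genes lay under it. The share over all probe sets is not given here. In the 24 genes with several, 32 of 56 further probe sets had the sign of the brightest one. At a mean log2 of at least 7 it was 24 of 34, and among dimmer ones 8 of 22, a level chosen after the values were seen. The widest disagreement between bright probe sets was in Rps9, whose product sits near the messenger RNA entry, a gene chosen after its values were seen. Its brightest probe set read 9.44, 9.35 and 9.41 with the mimic and 9.52, 9.55 and 9.52 in control (-0.13 ± 0.08). Another read 9.24, 9.36 and 9.16 with the mimic and 8.67, 8.86 and 8.79 in control (0.48 ± 0.10, adjusted p = 0.0805 by limma). Both separated the groups, in opposite directions.

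**Figure D5:**
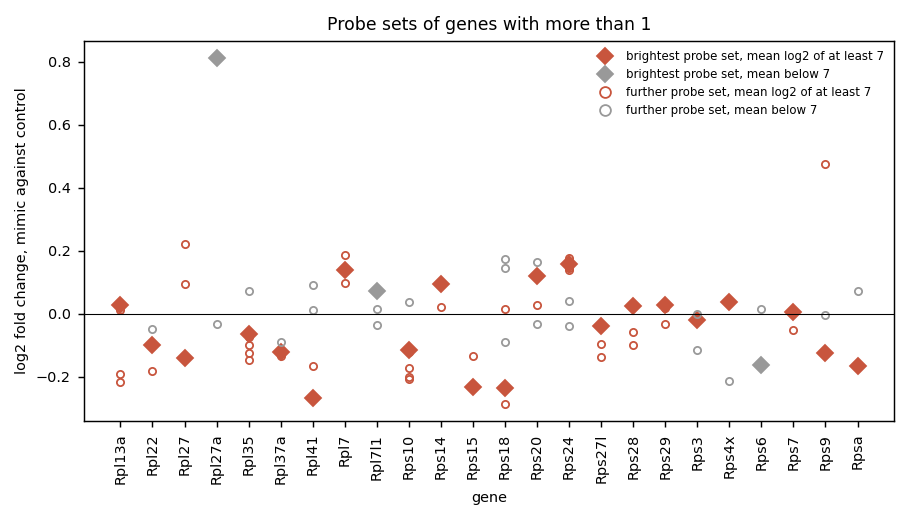
Log2 fold change, mimic against control, of every probe set of the 24 genes with more than 1; diamonds are the brightest probe set of a gene, circles the others, and red marks a mean log2 of at least 7. Most red points of a gene lie on one side of 0, with Rps9 (-0.13 and 0.48), Rpl27 and Rpl13a among the exceptions.

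A further 110 probe sets carry a ribosomal protein symbol beside other symbols, mostly pseudogenes, and name no single gene. In a fit of all 45037 probe sets other than controls, 0 of the 110 passed (0.897% of all did, by limma). An unadjusted p under 0.05 was found for 8, where 17.0% of all genes with 1 symbol lay under it in the main fit. Their median log2 fold change was -0.03, with 40 higher and 70 lower, and for 97 of them the 95% interval lay inside -0.5 to 0.5. The 74 at a mean log2 of at least 9 had changes from -0.23 to 0.37. Cross-hybridisation between genes and processed pseudogenes was not tested.

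The 8 genes whose tract begins with C at the annotated start had lower means with the mimic, none passed, and the direction did not hold for all genes under the other definitions. The 8 had a median log2 fold change of -0.10 (from -0.24 to -0.03), while the 35 other genes with an entry had a median of -0.05, with 13 higher and 22 lower. Of the 8, Rps27, Rpl14 and Rps6 were dim, at mean log2 values of 2.81, 3.47 and 5.12. With arrays left out, the change ran from -0.055 to 0.016 in Rps27 and from -0.24 to 0.016 in Rps6. The 11 genes with any such run had 2 higher and 9 lower means and a median of -0.09, the higher ones being Rps24 (0.16) and Rpl27a (0.81). The 22 genes with the longer tract near the start had 5 higher and 17 lower means and a median of -0.08, against 8 higher, 13 lower and a median of -0.05 in the 21 without. The differences between these sets were not tested. Other messages known to carry such a tract were taken as a list of 20, of which 16 were measured, 10 of them also on another list below. Of these 1 fell and 0 rose, with a median of -0.05. The gene that fell was Nap1l1, which encodes a histone chaperone. It read 7.66, 7.61 and 7.84 with the mimic, against 8.45, 8.42 and 8.24 in control (-0.66 ± 0.11, adjusted p = 0.0227 by limma), and its adjusted p ran from 0.06 to 0.134 when array mimic 1, 2 or 3 or control 1 or 2 was left out. Tpt1, among the most abundant of them, stood at 11.18 ± 0.03 and 11.22 ± 0.01 (SD, n = 3) in mimic and control.

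Of the genes that work with the ribosome none passed. Of 7 elongation factor genes 0 rose and 0 fell, with a median log2 fold change of -0.05. Eef2, which moves the ribosome along the message, came closest, at 8.72, 8.55 and 8.77 with the mimic and 9.46, 9.26 and 9.08 in control. Its groups did not overlap (-0.59 ± 0.12, adjusted p = 0.0526 by limma). It passed when genes under a mean log2 of 3 were dropped (limma, adjusted p = 0.0274) and in 5 further alternatives, and its adjusted p ran from 0.0512 to 0.187 with single arrays left out. Eef2k, the kinase that inhibits eEF2, had a change of 0.52 ± 0.14 (adjusted p = 0.112) and was chosen after its values were seen. Eef1a1, which brings aminoacyl-tRNA, differed by -0.05 ± 0.09 (adjusted p = 0.842) at a mean of 11.3. Of 33 initiation factor genes 0 rose and 0 fell (median -0.08), with the largest change in Eif4g2, a relative of the scaffold eIF4G (0.44 ± 0.15, adjusted p = 0.182).

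Genes that build ribosomes were measured in 70 of 71 listed cases, and 0 rose and 0 fell. Their median log2 fold change was -0.08, and 15 had an unadjusted p under 0.05, where 17.0% of all genes lay under it. The largest change was in Ncl, which encodes the nucleolar protein nucleolin, at 7.70, 7.61 and 7.36 with the mimic and 7.65, 8.48 and 8.19 in control. Control array 1 lay among the mimic arrays, and the change was -0.55 ± 0.20 (adjusted p = 0.222 by limma). Among 18 genes that link growth signals to ribosomes 0 rose and 0 fell. Rps6ka3, which encodes the kinase RSK2, differed most (-0.63 ± 0.17, adjusted p = 0.113). Fau, whose product is cut into a ubiquitin-like part and the small subunit protein S30 and which the choice by name leaves out, differed by -0.26 ± 0.14 (adjusted p = 0.416).

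The ribosome of mitochondria, encoded by other genes, gave 2 calls among 76. Mrpl1 read 4.74, 4.54 and 4.50 with the mimic, against 3.97, 4.13 and 4.05 in control (0.54 ± 0.10, adjusted p = 0.036 by limma). Mrps18c read 7.25, 7.24 and 7.37 with the mimic, against 6.75, 6.86 and 6.88 in control (0.46 ± 0.09, adjusted p = 0.0438). Both rose and 0 fell, where 1.17% of all genes rose. Mrps18c was named after its values were seen. Neither passed with any array left out, with the replicate number as a block or with all probe sets adjusted together. The median of the 76 was 0.01.

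The myeloid label was met by S100a9 at a mean log2 of 12.2 and S100a8 at 11.9, while the 6 measured T and NK cell markers were all low (2 of them under a mean log2 of 1) and summed to 15.65 to 16.04 linear units with the mimic and 15.05 to 16.51 in control. The 7 B cell markers were higher, with sums of 178 to 225 with the mimic and 191 to 262 in control, led by Ighm at a mean log2 of 6.98 and Cd79b at 5.55. Markers of other cell types differed between the same groups, and their part in the ribosomal protein values was not tested. Of 10 dendritic cell and class II markers 7 fell and 0 rose (sums of 792 to 819 with the mimic and 1863 to 3996 in control), with Ccl17 the largest change. Of 5 neutrophil precursor markers 2 rose (sums of 5792 to 5849 with the mimic and 2233 to 3808 in control), with Ctsg the largest change. Of 10 interferon response genes 9 rose, with Cxcl10 the largest change. Of 9 mature neutrophil markers Mmp8 fell and 0 rose, although 7 had higher means and 2 lower. Their sums were 17103.5 to 17401 with the mimic and 13810 to 16662.5 in control. Of 9 macrophage markers Fcgr1 and C1qb rose and Csf1r fell. Gata1 rose among 6 erythroid markers and Ms4a1 fell among 7 B cell markers, and no T or NK cell marker passed, Cd3g having the largest change. The 6 erythroid markers were all low, at mean log2 values of 0.27 to 3.32, with 3 of them under 1. Their sums were 25.6 to 27.8 with the mimic and 16.0 to 20.3 in control. With limma, dropping mimic array 1, mimic array 3 or control array 2 left 0 genes past the threshold on the whole array, and dropping mimic array 2 left 65.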

How the data were processed

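RNA from 6 samples was measured on Affymetrix MOE430 2.0 arrays; per the labels' protocols, extraction used Trizol, and biotin was added during in vitro transcription over 16 h. The deposited table holds log2 values for 45101 probe sets, and the submitters' processing notes list RMA and affy without version or role. The logarithm's base was read from the range of the values (-0.39 to 12.3), and centring and floor are not stated. Column medians ran from 0.84 to 0.92.

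The values were used as deposited. Of the probe sets, 34945 have 1 symbol in the platform annotation. Symbols were updated through RefSeq (34741 matched), and the brightest probe set stood for each of 18193 genes. The comparison of mimic with control used lmFit and eBayes of limma 3.58.1 (R 4.3.3; two-sided, no covariate) with Benjamini-Hochberg adjustment at 0.05. The fit was tested on simulated data with known changes, drawn with each gene's own SD and with limma's moderated SD. A first version of this test, with each gene's own SD, missed its recovery target and was changed, so both are kept. Over repeated draws estimates were unbiased, and false calls averaged near or below the set level with both, although single draws went above it. Recovery was lower with the own SDs, and with both most changes of 0.5 log2 were missed, so a gene that did not pass may still differ by that much unless its interval is narrower.

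The members, lists and tests were chosen with earlier results of these data known. Named genes are the member with the largest change each way in each class, 23 genes listed for their roles (19 measured), and the largest change of each other list; genes outside this rule are marked. Alternatives were filters on dim genes, leaving out single arrays, the replicate block, other probe set choices, other variance models, array weights and other normalisations. Centring on bright genes and leaving out mimic array 3 and control array 1 together were added after seeing the data.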

Additional observations from a re-analysis of the deposited data

How the results depend on the processing

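The count of ribosomal protein genes that passed was 0 in the main analysis and in each of the 18 alternatives, 4 of which called no gene of the whole array and say nothing about stability. At an unadjusted p it ran from 0 to 8 genes. The median log2 fold change of the 49 genes ran from -0.080 to -0.018 with arrays left out, and was -0.026 without mimic array 3 and -0.018 without mimic array 3 and control array 1. Over all genes 503 passed, against 314 with the replicate block, 0 to 413 with arrays left out, 708 and 641 with genes below a mean log2 of 3 and 5 left out, 295 with all probe sets adjusted together and 1047 with array weights. With array weights 456 rose and 591 fell. A further quantile normalisation gave 322 higher and 290 lower, and centring on medians 210 and 351. The titles share replicate numbers, and deviations of same-numbered arrays 1, 2 and 3 correlated at -0.13, 0.34 and -0.30 over genes. With 3 arrays a group these values cannot settle whether the numbers pair the arrays. The replicate block left 0 calls among other tract messages and mitochondrial ribosomal genes and changed no call among the 49.

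Counts in lists moved as follows. Among elongation factors (0 calls) there was 1 with genes below 3 or below 5 left out, with a trended robust variance, with array weights and with centring on medians, and 2 with quantile normalisation. Other tract messages (1) gave 2 in these same fits, where the added call is Eef2, which is on both lists, so that it is the same call, 0 with probe sets averaged and 0 to 1 with arrays left out. Ribosome building genes (0) gave 1 with genes below 3 left out, 3 with genes below 5 left out, 1 with probe sets averaged, 3 with array weights and 0 to 1 with arrays left out. Mitochondrial ribosomal genes (2) gave 4 with genes below 5 left out, 1 with probe sets averaged, 0 with all probe sets adjusted together, 1 with centring on medians, 1 with centring on bright genes and 0 with arrays left out. Interferon genes (9) gave 5 with all probe sets adjusted together and 0 to 8 with arrays left out.

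Of 405 values of named ribosomal protein genes under alternatives, 0 passed and 16 turned sign. With probe sets averaged these were Rpl13a (-0.092) and Rps4x (-0.087), whose other probe set was dim, at a mean log2 of 1.18. With the probe set types that can match several transcripts left out they were Rpl41 (0.092), Rps24 (-0.038) and Rpl13a (-0.19), and with quantile normalisation Rpl13a (-0.0088) and Rps27 (0.035). With arrays left out the values ran from -0.13 to 0.41 in Rpl39l, -0.29 to 0.019 in Rpl3l, -0.055 to 0.016 in Rps27, -0.11 to 0.079 in Rps27l, -0.042 to 0.0033 in Rps3 and -0.24 to 0.016 in Rps6. Beyond the change of probe set, the cause of these turns was not tested.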
